A study of Rattus norvegicus with 10 samples.

Results

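The circadian clock genes examined in distal colon epithelium were the 10 core loop and output genes Arntl, Npas2, Per1, Per2, Per3, Cry1, Cry2, Nr1d1, Dbp and Nfil3, chosen by gene symbol from the 23422 genes of the count table. All 10 were found, each in 1 row, and all 10 passed the filter on low counts. RNA came from male Wistar Munich rats, a rat strain, kept at 12 h light and 12 h dark in single metabolic cages. Of 12 rats, 6 were given sodium cholate, the salt of a primary bile acid, at 1% w/w in their chow after 3 days of acclimatization, and the other 6 stayed on plain chow. After 10 days the epithelium was released from the distal colon with EDTA. The poly(A) RNA was sequenced from the 5 rats per diet with the most RNA, namely rats 1, 2, 5, 6 and 9 on plain chow (control) and rats 3, 4, 7, 8 and 11 on cholate.

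The clock is a loop of transcription factors that runs in most cells. BMAL1, encoded by Arntl, pairs with CLOCK or its relative NPAS2 and switches on the Per, Cry, Nr1d1 and Dbp genes through E-box elements. The PER and CRY proteins then repress that pair, and REV-ERB alpha, encoded by Nr1d1, represses Arntl, Npas2 and Nfil3 through RORE elements that ROR proteins activate. DBP and NFIL3 bind the same D-box element, where DBP activates and NFIL3 represses, and they pass the rhythm on to output genes. In the gut the clock is known to follow feeding time as well as light. The sources used here do not give the hour at which each rat was killed, and with 1 time point per rat a lower level and a shifted rhythm cannot be told apart.

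The proximal promoters of the 3 genes with the largest changes and of Arntl are shown so that these elements can be seen beside the levels. They are RefSeq sequences of build GRCr8, a later build than the rn6 annotation of the counts, and each is the 250 bases before the start of the gene, 5′ to 3′. The Nfil3 window is chr17:12432126-12432375 on the plus strand, Cry2 is chr3:98860438-98860687 on the minus strand, Per2 is chr9:99496994-99497243 on the minus strand and Arntl is chr1:176766078-176766327 on the plus strand. Capitals mark every match to the motifs searched.
Nfil3: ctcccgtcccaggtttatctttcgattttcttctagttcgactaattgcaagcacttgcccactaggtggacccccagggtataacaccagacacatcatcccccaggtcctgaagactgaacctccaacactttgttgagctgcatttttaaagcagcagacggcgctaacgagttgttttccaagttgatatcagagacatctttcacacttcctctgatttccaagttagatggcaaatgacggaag
Cry2: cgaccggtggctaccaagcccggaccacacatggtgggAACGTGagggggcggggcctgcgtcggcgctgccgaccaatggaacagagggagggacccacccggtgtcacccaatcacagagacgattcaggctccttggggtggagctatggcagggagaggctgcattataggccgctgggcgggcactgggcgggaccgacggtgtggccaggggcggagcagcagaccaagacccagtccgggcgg
Per2: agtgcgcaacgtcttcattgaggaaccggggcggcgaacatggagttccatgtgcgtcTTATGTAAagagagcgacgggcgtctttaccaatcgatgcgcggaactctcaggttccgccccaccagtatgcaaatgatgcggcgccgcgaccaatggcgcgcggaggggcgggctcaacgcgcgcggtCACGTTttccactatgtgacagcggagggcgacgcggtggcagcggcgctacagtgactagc
Arntl: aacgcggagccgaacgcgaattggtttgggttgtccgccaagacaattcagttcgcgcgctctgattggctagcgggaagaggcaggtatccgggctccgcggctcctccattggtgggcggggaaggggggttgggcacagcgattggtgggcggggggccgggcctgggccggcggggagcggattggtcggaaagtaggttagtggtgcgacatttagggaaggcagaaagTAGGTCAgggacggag

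The motifs were the E-box CACGTG, the E-prime box CACGTT, the D-box TTATGTAA or TTACGTAA, the RORE core TAGGTCA or TGGGTCA, the cyclic AMP element TGACGTCA and the palindromic glucocorticoid element, each on both strands. No base was counted under 2 motifs in these windows. Per2 held the D-box TTATGTAA 185 to 192 bases before its start and the E-prime box CACGTT 57 to 62 bases before it. Cry2 held an E-prime box 207 to 212 bases before its start, on the opposite strand, and Arntl a RORE core TAGGTCA 10 to 16 bases before its start. Nfil3 held none of these letters in its window. Of 33469 windows of that length, 5.59% held the E-box, 4.07% the E-prime box, 0.932% the D-box, 5.62% the RORE core, 1.59% the cyclic AMP element and 0.012% the glucocorticoid element. Promoters of 9 of the 10 genes matched by gene ID. In addition Nr1d1 held an E-box in 1 of its 2 windows and an E-prime box in the other, and the windows of Dbp, Npas2, Per1 and Per3 held no match.

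Nfil3, Cry2, Per2 and Npas2 fell on cholate, and the other 6 genes did not pass the test. The fitted level on cholate was 35.9% of control for Nfil3, 36.4% for Cry2, 42.0% for Per2 and 63.0% for Npas2. The fit was edgeR's quasi-likelihood test over 12385 genes, with p-values adjusted by Benjamini-Hochberg over all of them. A gene is called where it meets the criteria the submitters state, more than a 2-fold change with adjusted p below 0.01, and fell or rose is written where adjusted p is below 0.05. By the submitters' criteria 2 of the 10 genes were called, both lower, where 3.21% of all tested genes were called and 2.12% were called lower. At an adjusted p under 0.05, 4 of the 10 were lower, where 13.8% of all genes passed and 7.28% were lower. No overlap between diets was seen in 3 of the 10, all lower on cholate, where 6.8% of all genes were lower without overlap. The log2 change was below 0 in 10 of 10, where that held for 51.1% of all genes, and the median was -0.78 against -0.01.

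Levels are CPM, counts relative to the library's total, after TMM scaling by a trimmed mean of gene ratios. Library totals ran from 14337356 to 45285762 counts. The first principal component of all tested genes, with 51.1% of the variance, set controls 5 and 9 and cholate rats 8 and 11 apart from the other 6 libraries. The 50 most abundant genes took 30.6%, 35.7%, 33.1% and 32.4% of counts in these 4, in that order, and 24.6% to 29.3% in the other 6. Control 9 and cholate rats 8 and 11 also had the lowest totals, while control 5 had 25957175 counts. No label names a batch for these 4 libraries, so results are also given for the 6 and the 4 alone. Epithelial markers were present in every library, 14 of 14 measured, with a summed level of 19089 to 25968 CPM in controls and 29853 to 41687 CPM on cholate. Of these 14, 4 (Lgals4, Vil1, Krt20 and Car1) were higher at an adjusted p under 0.05, where 802 of 12385 genes were. The others did not pass, and 3 had log2 changes below 0, Epcam (-0.10), Cdh1 (-0.16) and Krt18 (-0.33). The 13 stromal and muscle markers, all measured, summed to 48.8 to 71.2 CPM in controls and 15.8 to 19.7 CPM on cholate. Des gave most of the control sum, with means of 38.2 CPM in controls and 4.502 CPM on cholate. Myh11 went from 10.6 to 5.83 CPM (adjusted p = 0.0138) and Col1a1 from 2.95 to 0.472 CPM (adjusted p = 0.01004). Of the 5 tested, 3 were lower at an adjusted p under 0.05, where 7.28% of all genes were. Vim and Pdgfrb, the others tested, did not pass. Of the 13, 7 stayed below 1 CPM in every library, Col1a2 was at 0 throughout, and Vim stood at 3.90 and 4.67 CPM. The 11 lymphocyte markers summed to 7.91 to 15.8 CPM in controls and 7.14 to 29.6 CPM on cholate. Proliferation markers, 10 of 10 measured, summed to 737 to 873 CPM in controls and 878 to 1376 CPM on cholate. Of these 10, 6 were higher at an adjusted p under 0.05, where 802 of 12385 genes were, and the others did not pass. Tk1 and Ccnb1 were called higher, 2 of 10, where 136 of 12385 genes were. Enteroendocrine markers, 8 of 8 measured with Insl5 at 0 throughout, summed to 211 to 281 CPM and 293 to 545 CPM. Of the 7 tested, Cck, Pyy and Gcg were called higher, where 136 of 12385 genes were. Chga, Chgb, Neurod1 and Scg5 did not pass, with log2 changes of -0.08, 0.02, -0.02 and 0.33. Goblet cell markers, 7 of 7, summed to 7717 to 24434 CPM and 7306 to 26558 CPM, and the 8 markers of endothelium, blood and nerve to 18.0 to 45.4 CPM and 9.83 to 23.0 CPM. Myeloid markers, 8 of 8, summed to 210 to 293 CPM and 224 to 301 CPM. Cd14 gave most of that sum in both diets, with means of 226.6 and 225.6 CPM, and 2 of the 8 stayed below 1 CPM in every library. The part of these shifts in the clock results was not tested, and in such bulk samples fewer cells of a type and less RNA per cell cannot be told apart.

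**Figure D1:**
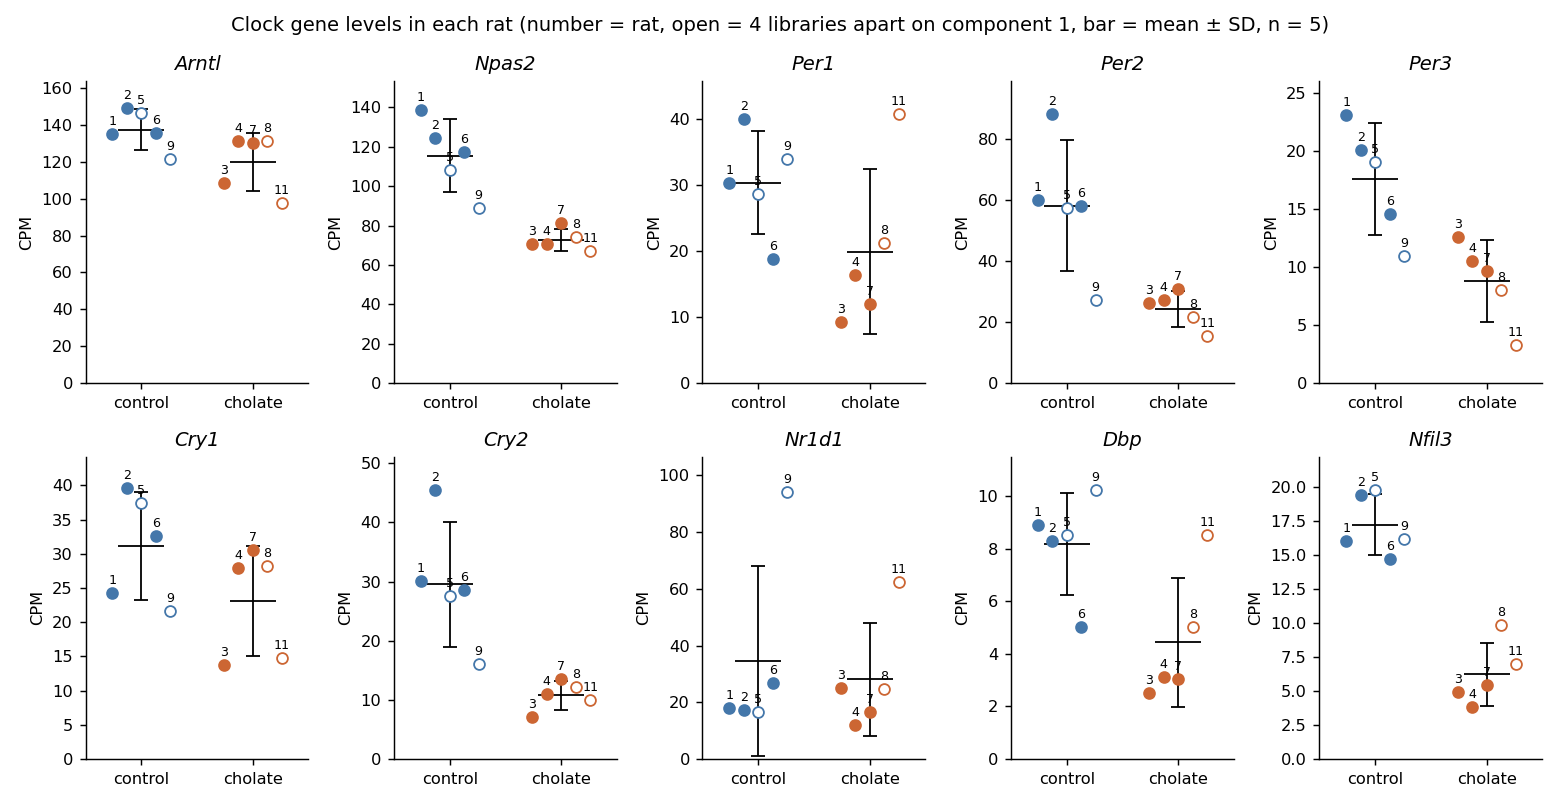
Level of each of the 10 clock genes in every rat, in CPM on linear axes from 0, with controls in blue and cholate in orange. Numbers are rats, open circles are the 4 libraries apart on component 1, and bars are mean ± SD (n = 5); the diets do not overlap for Npas2, Cry2 and Nfil3, and control rat 9 and cholate rat 11 carry the highest Nr1d1.

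Among the activators, Arntl (Entrez 29657, rn6 chromosome 1, 178039002 to 178137469, plus strand) was the most abundant of the 10 and stayed close to control. It stood at 134.8, 149.0, 146.3, 135.6 and 121.4 CPM in control rats 1, 2, 5, 6 and 9, and at 108.5, 131.4, 130.1, 131.0 and 97.8 CPM in cholate rats 3, 4, 7, 8 and 11. The ranges overlap, with cholate rats 3 and 11 below every control. The means were 137.4 ± 10.95 and 119.7 ± 15.6 CPM (SD, n = 5), a log2 change of -0.20 (SE 0.12, adjusted p = 0.302).

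Npas2 (Entrez 316351, chromosome 9, 45901262 to 46081880, plus strand), the relative of CLOCK that can replace it beside BMAL1, fell on cholate. Its levels were 138.5, 124.3, 108.5, 117.5 and 88.7 CPM in the controls and 70.6, 70.5, 81.3, 74.2 and 67.0 CPM on cholate, in the same order of rats. The lowest control, rat 9, lay above the highest cholate rat, rat 7, and the cholate rats lay closer together than the controls. The log2 change was -0.67 (SE 0.13, adjusted p = 0.00843), under the fold limit, so Npas2 was not called. It overlaps the antisense gene LOC108351916, and the sources used here do not say whether strand was used in counting.

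Clock itself, 1 of 26 further clock genes listed, stood at 53.5, 71.6, 31.1, 75.7 and 6.86 CPM in the controls and at 82.2, 76.8, 69.6, 4.13 and 8.05 CPM on cholate. The low values are those of control rats 5 and 9 and cholate rats 8 and 11, in both diets, and the log2 change was 0.02 (SE 0.80, adjusted p = 0.991). That sign turned in some settings. Among the 6 libraries that lie together it was 0.22 (adjusted p = 0.223), and among the other 4 it was -1.67 (adjusted p = 0.331).

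Among the PER and CRY repressors, Cry2 (Entrez 170917, chromosome 3, 81314151 to 81344143, minus strand), a cryptochrome that blocks the BMAL1 pair, fell on cholate. It stood at 30.0, 45.4, 27.6, 28.5 and 16.0 CPM in control rats 1, 2, 5, 6 and 9 and at 7.09, 10.97, 13.5, 12.1 and 10.02 CPM in cholate rats 3, 4, 7, 8 and 11. Every cholate rat lay below every control, with control rat 9 nearest to them. The means were 29.5 ± 10.5 CPM in controls and 10.7 ± 2.41 CPM on cholate, and Cry2 was called at a log2 change of -1.46 (SE 0.27, adjusted p = 0.00637). The call held without control rat 9 (-1.63, adjusted p = 0.00247) and was lost when any other single rat was left out, with adjusted p up to 0.0192 and log2 changes from -1.25 to -1.55. Cry2 overlaps the antisense genes LOC108350416 and LOC102546693. Its paralog Cry1 (Entrez 299691, chromosome 7, 24534593 to 24634098, plus strand) stood at 24.2, 39.6, 37.5, 32.7 and 21.6 CPM in controls and 13.8, 27.9, 30.6, 28.2 and 14.8 CPM on cholate. Those ranges overlap, with cholate rats 3 and 11 low, and the log2 change was -0.43 (SE 0.27, adjusted p = 0.334). Cry1 overlaps the gene LOC102551657 on its own strand.

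Per2 (Entrez 63840, chromosome 9, 98555154 to 98597362, minus strand), a partner of the cryptochromes in repression, fell from 58.2 ± 21.6 to 24.4 ± 5.96 CPM. The controls held 60.2, 88.1, 57.5, 58.0 and 27.2 CPM and the cholate rats 26.4, 27.4, 31.0, 21.6 and 15.6 CPM. Control rat 9 sat among the cholate rats, and the other 4 controls lay above all of them. Per2 changed by -1.25 on the log2 scale (SE 0.29, adjusted p = 0.016), past the fold limit but not called. Without control rat 9 it was -1.43 (adjusted p = 0.00428) and was called, and over the 10 single omissions adjusted p went up to 0.0436.

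Per3 (Entrez 78962, chromosome 5, 168088126 to 168123482, minus strand), the PER paralog that mouse clocks can run without, stood at 23.1, 20.2, 19.1, 14.6 and 10.9 CPM in controls and 12.6, 10.6, 9.67, 8.08 and 3.26 CPM on cholate. Cholate rat 3 overlapped control rat 9, and cholate rat 11 was lowest of all. For Per3 the log2 change was -0.99 (SE 0.33, adjusted p = 0.0701), and over single omissions it ran from -1.14 to -0.78, with adjusted p from 0.0479 without control rat 9 to 0.165 without control rat 1.

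Per1 (Entrez 287422, chromosome 10, 55681761 to 55696557, plus strand), the PER gene that also answers to glucocorticoid and cyclic AMP signals, did not pass the test. Control rats held 30.3, 40.0, 28.6, 18.8 and 33.9 CPM, and cholate rats 9.23, 16.4, 12.0, 21.2 and 40.7 CPM. Cholate rats 3, 4 and 7 lay below every control, while cholate rat 11 was the highest of all 10. Over all 10 rats the Per1 log2 change was -0.61 (SE 0.37, adjusted p = 0.312), and over single omissions it ran from -0.43 without cholate rat 3 (adjusted p = 0.47) to -1.06 without cholate rat 11 (adjusted p = 0.0316). Adjusted p was highest, 0.519, without control rat 2.

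Nr1d1 (Entrez 252917, chromosome 10, 86683875 to 86690815, minus strand), which encodes the REV-ERB alpha repressor of Arntl, gave no diet difference that the test could separate from the spread of rats. Levels were 18.0, 17.1, 16.7, 26.7 and 94.0 CPM in controls and 24.9, 12.1, 16.6, 24.7 and 62.3 CPM on cholate. Control rat 9 and cholate rat 11 stood far above the rest of their groups. The log2 change was -0.30 (SE 0.58, adjusted p = 0.793), and 1 rat set its direction, with 0.48 (adjusted p = 0.464) without control rat 9 and -0.83 (adjusted p = 0.364) without cholate rat 11. Nr1d1 overlaps the thyroid hormone receptor gene Thra on the opposite strand, and strand use in counting is not known here. Thra stood at 46.2, 50.4, 37.9, 41.8 and 54.4 CPM in controls and 19.3, 15.8, 18.6, 27.5 and 28.4 CPM on cholate, so the 2 rats with high Nr1d1 had the highest Thra of their diet.

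Nfil3 (Entrez 114519, chromosome 17, 12261102 to 12276316, plus strand), the D-box repressor also called E4BP4, fell on cholate, by about as much as Cry2. It stood at 16.0, 19.4, 19.8, 14.7 and 16.2 CPM in controls and 4.95, 3.82, 5.46, 9.83 and 6.98 CPM on cholate. All cholate rats lay below all controls, and the highest of them, rats 8 and 11, belong to the 4 libraries apart. The means were 17.2 ± 2.24 CPM in controls and 6.21 ± 2.32 CPM on cholate, and Nfil3 was called at a log2 change of -1.48 (SE 0.25, adjusted p = 0.00419). Its call was lost without control rat 1, 2 or 6 or cholate rat 3 or 7, with adjusted p up to 0.0149. The log2 change stayed between -1.34 and -1.70 over all 10 single omissions.

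Dbp (Entrez 24309, chromosome 1, 101687896 to 101692845, plus strand), the D-box activator and a direct target of the BMAL1 pair, stood at 8.91, 8.28, 8.504, 5.005 and 10.2 CPM in controls. On cholate it stood at 2.51, 3.10, 3.05, 5.008 and 8.503 CPM in rats 3, 4, 7, 8 and 11. Rats 3, 4 and 7 lay below every control, rat 8 was level with control rat 6, and rat 11 was level with control rat 5. Dbp had a log2 change of -0.90 (SE 0.35, adjusted p = 0.111), and over single omissions it ran from -0.75 without cholate rat 3 (adjusted p = 0.191) to -1.28 without cholate rat 11 (adjusted p = 0.0136). Adjusted p was highest, 0.209, without cholate rat 4.

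**Figure D2:**
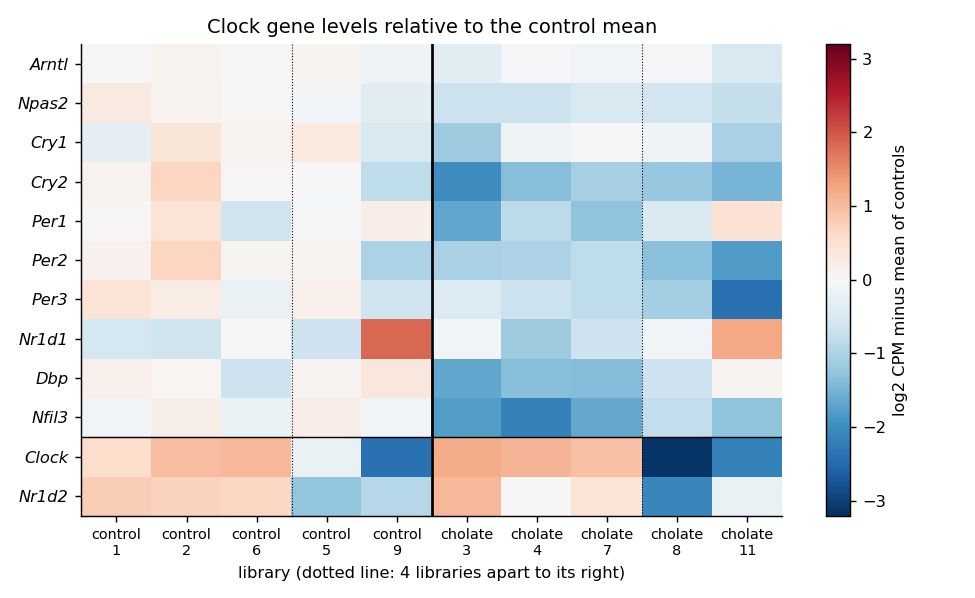
Log2 CPM of the 10 clock genes, and of Clock and Nr1d2 under the horizontal line, minus the mean of the 5 controls, with 1 column per rat, red higher and blue lower. Cry2, Per2 and Nfil3 are blue in all 5 cholate rats, and Nr1d1 is red in control rat 9 (1.83) and cholate rat 11 (1.24). Right of the dotted lines, Clock is low in control rat 9 (-2.40) and cholate rats 8 (-3.13) and 11 (-2.17), but only -0.22 in control rat 5.

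Ratios of 2 genes within a rat do not depend on library scaling. The log2 ratio of Arntl to Nr1d1 was 2.90, 3.12, 3.13, 2.34 and 0.37 in controls and 2.12, 3.45, 2.97, 2.41 and 0.65 on cholate. Both diets held 1 rat with a low ratio, control 9 and cholate 11, and the means were 2.37 ± 1.17 and 2.32 ± 1.06. Arntl over Dbp was 3.92, 4.17, 4.10, 4.76 and 3.57 in controls and 5.43, 5.40, 5.41, 4.71 and 3.52 on cholate. Cholate rats 3, 4 and 7 lay above all controls, rat 8 within their range and rat 11 below it. For Arntl over Per3 the means were 3.01 ± 0.35 and 3.88 ± 0.66, and for Nfil3 over Dbp 1.10 ± 0.35 and 0.56 ± 0.55, with overlap between diets in both.

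Levels between genes were compared as CPM per kilobase of coding length, the length that the table gives. In controls Arntl stood highest at 71.8 ± 5.73 and Npas2 next at 47.1 ± 7.57, and their ranges did not overlap. Nr1d1 (18.7 ± 18.2), Cry1 (17.6 ± 4.502), Cry2 (16.5 ± 5.88), Per2 (15.4 ± 5.71) and Nfil3 (12.4 ± 1.61) came next in CPM per kilobase, each within the spread of its neighbour. Dbp (8.37 ± 1.98), Per1 (7.81 ± 2.01) and Per3 (4.995 ± 1.37) were lowest, again with overlapping neighbours. On cholate Arntl and Npas2 kept the top at 62.6 ± 8.18 and 29.7 ± 2.22, while Nfil3 stood at 4.47 ± 1.67 and Cry2 at 6.01 ± 1.35.

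Among the 6 libraries that lie together on component 1, more of the clock genes passed. Controls 1, 2 and 6 and cholate rats 3, 4 and 7 did not overlap for 8 of the 10 genes, all lower on cholate and all but Cry1 and Nr1d1, where 28.9% of all genes were lower without overlap. In a fit of these 6 alone, Nfil3 (-1.79), Cry2 (-1.68), Dbp (-1.32) and Per2 (-1.25) were called, 4 of 10 where 7.93% of all genes were. Per1 (-1.20, adjusted p = 0.021), Per3 (-0.79, adjusted p = 0.0112) and Npas2 (-0.74, adjusted p = 0.00112) also fell, which makes 7 of 10 at an adjusted p under 0.05, where 38.5% of all genes passed. Among the other 4, with 2 rats per diet, all 10 log2 changes were below 0, where 53.7% of all genes were. In these 4, none of the 10 was called, where 0.922% of all genes were, and none passed an adjusted p of 0.05, where 3.88% did. At an unadjusted p under 0.05 in edgeR 5 of the 10 were lower there, namely Cry2, Nfil3, Npas2, Per2 and Per3, where 11.7% of all genes were. The log2 changes of the 10 in these 4 libraries included -1.44 for Per3, -1.22 for Per2, -1.13 for Nfil3 and -1.01 for Cry2, and the one nearest to 0 was -0.05 for Per1. With diet by split as an interaction term, the log2 change of Per1 was 1.22 higher in the 4 than in the 6 libraries (SE 0.51, adjusted p = 0.328). That difference did not pass, nor did it for any other of the 10, the next being Nfil3 (0.72, adjusted p = 0.346) and Dbp (0.87, adjusted p = 0.383). Over all genes 0.00807% passed that test. In a fit of all 10 libraries with the split as a term, 5 of 10 were called, Nfil3, Cry2, Per2, Dbp and Per3, where 6.69% of all genes were. With quality weights for each library in limma-voom, 4 of 10 were called, where 9.34% of genes were, and 7 passed 0.05, where 37.2% did. With glmTreat, which tests against a fold of 2, none was called, where 0.404% of genes were, and none passed 0.05, where 1.11% did, with 2 (Cry2 and Nfil3) lower at an unadjusted p under 0.05, where 3.12% of genes were.

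**Figure D3:**
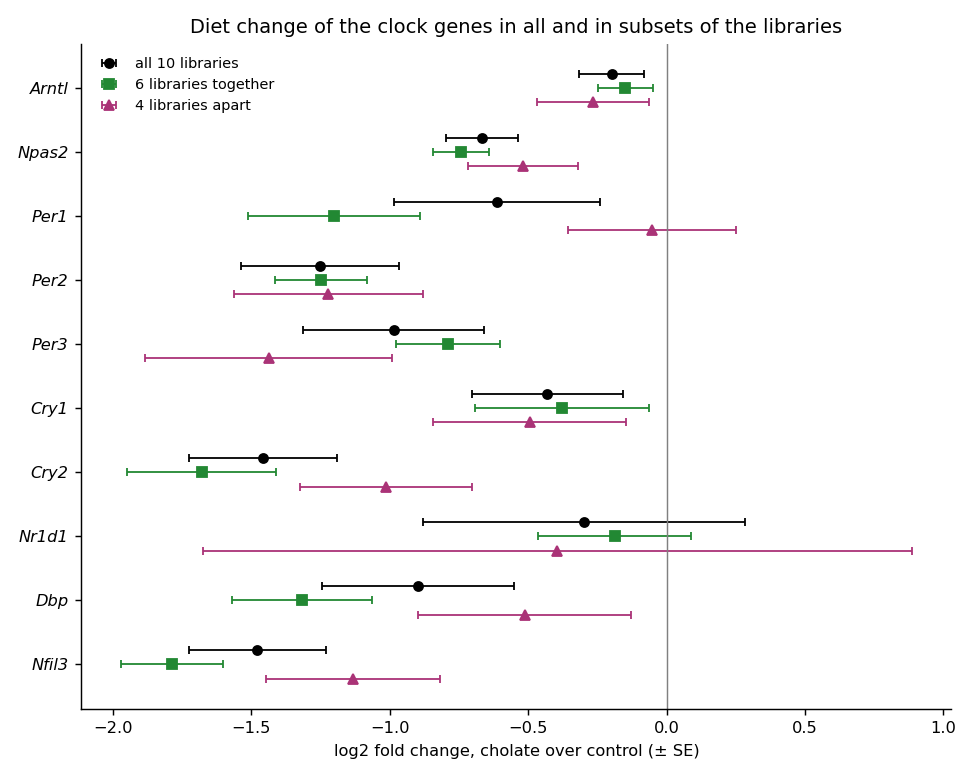
Log2 fold change of cholate over control, with SE, of the 10 clock genes in all 10 libraries (black), in the 6 that lie together on component 1 (green) and in the 4 apart (purple, 2 rats per diet). Every value lies below 0, where 51% of all genes do in the 6 libraries, and Per1, Dbp, Cry2 and Nfil3 are further from 0 in the 6 libraries than in the 4.

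Of these 26 further clock genes 21 were tested, and 1 was called lower, where 2.12% of all genes were. In edgeR, DESeq2 and limma-voom, 0 of the 21 were higher at an adjusted or an unadjusted p under 0.05. Of all genes, edgeR had 14.5% higher unadjusted and 802 of 12385 higher at an adjusted p under 0.05. It had 4 of the 21 lower unadjusted, where 14.4% of all genes were. Csnk1e, the casein kinase that phosphorylates PER proteins, stood at 16.8, 16.9, 12.1, 15.6 and 16.0 CPM in controls and 6.79, 7.64, 6.77, 8.20 and 9.03 CPM on cholate. The diets did not overlap, and the log2 change was -1.01 (SE 0.16, adjusted p = 0.00305). The call was lost under RLE scaling (-0.999) and without control rat 1, 2 or 6 or cholate rat 3, 4 or 7, with log2 changes from -0.97 to -1.10 and adjusted p up to 0.0123 over all single omissions. It was -1.18 in the 6 libraries together and -0.75 in the 4 apart (adjusted p = 0.204). Its paralog Csnk1d had a log2 change of 0.06 (adjusted p = 0.834), or -0.15 among the 4 libraries apart.

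Rora, a RORE activator, had 1 count over the controls and 5 over the cholate rats, and its paralog Rorb had none, where a count of 0 allows up to 3 counts or 0.0616 to 0.228 CPM per library. Neither was tested.

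Tef, a D-box activator like Dbp, had a log2 change of -0.87 (adjusted p = 0.0664) and was called without control rat 9 (-1.06, adjusted p = 0.00907), while adjusted p was 0.0861 to 0.161 without each other rat. Hlf, the other member of that family, had 0 counts in controls and 1 on cholate and was not tested. Bhlhe40, an E-box repressor, had -0.63 (adjusted p = 0.138), with -0.92 (adjusted p = 0.0147) without cholate rat 3 and adjusted p from 0.114 to 0.251 without each other rat, and its paralog Bhlhe41 was not tested at 4 and 3 counts. Nr1d2, the paralog of Nr1d1, had -0.08 (adjusted p = 0.945), and its 4 lowest values were those of the 4 libraries apart. Ciart, a clock repressor, had 0.47 (adjusted p = 0.585) at 1.27 ± 0.96 and 1.74 ± 0.85 CPM, and Fbxl21 was not tested. The signs of Nr1d2 and Ciart turned among the 4 libraries apart.

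**Figure D4:**
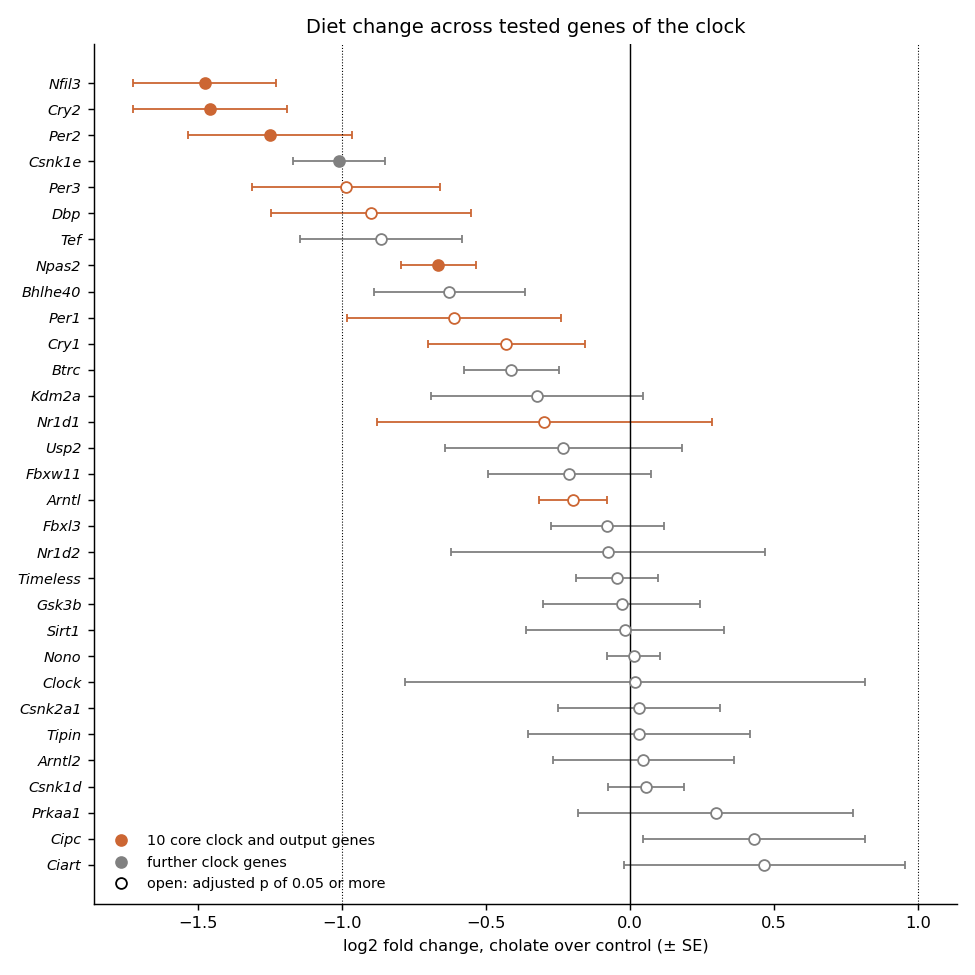
Log2 fold change of cholate over control, with SE, of the 10 clock genes (orange) and 21 further tested clock genes (grey), filled where the adjusted p is under 0.05 and with dotted lines at the fold limit. The 5 filled genes, Nfil3, Cry2, Per2, Csnk1e and Npas2, are all lower on cholate.

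Among 16 tested clock output genes 1 was called lower, where 2.12% of all genes were, and 1 more fell, where 7.28% of all genes were lower at an adjusted p under 0.05. Klf11, a Kruppel-like factor, went from 7.54 ± 1.91 to 3.06 ± 0.60 CPM (log2 change -1.30, adjusted p = 0.00562). Its call held only without control rat 9 or cholate rat 8 among the single omissions. The glucose transporter Slc5a1 went from 49.7 ± 12.9 to 28.0 ± 5.09 CPM (-0.82, adjusted p = 0.0237), and its adjusted p rose to as much as 0.0661 without control rat 1, 2 or 6 or cholate rat 4 or 11.

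Glucocorticoids reset peripheral clocks and act on Per1, so their response genes were read beside it. Of 16 tested, Per1 among them, 1 was called higher and 1 lower, where 3.21% of all genes were called. Another 2 fell, which makes 3 of 16 lower at an adjusted p under 0.05, where 7.28% of all genes were lower. Fkbp5, a chaperone of the glucocorticoid receptor, rose from 8.41 ± 3.79 to 38.3 ± 12.5 CPM (log2 change 2.18, adjusted p = 0.00318), and was no longer called when control rat 1 or 2 was left out. Tsc22d3, which encodes the leucine zipper GILZ and cycles in many tissues, fell from 62.4 ± 13.5 to 28.3 ± 6.08 CPM (-1.14, adjusted p = 0.005), its call lost without control rat 1, 2 or 6 or cholate rat 4 or 7. These 2 textbook targets of the same receptor thus moved in opposite directions, without overlap between diets. Among the 16 tested, 1 was lower and 2 were higher on cholate without overlap, where 13.1% of all genes did not overlap in either direction. The kinase Sgk1 (-1.47, adjusted p = 0.0317) and the phosphatase Dusp1 (-0.89, adjusted p = 0.043) also fell. Adjusted p went to as much as 0.0824 for Sgk1 and 0.108 for Dusp1 when 1 rat was left out, and reached 0.05 or more in 6 of 10 such fits for each. In the 6 libraries together the log2 change was -1.83 for Sgk1, -1.498 for Dusp1 and -1.36 for Tsc22d3. In the 4 apart it was -0.55 for Sgk1 (adjusted p = 0.155), -0.12 for Dusp1 (adjusted p = 0.757) and -0.74 for Tsc22d3 (adjusted p = 0.0911). Whether the 6 and the 4 differed was not tested for these genes.

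Immediate early genes, the first to answer serum and cyclic AMP signals that also reach Per1, gave 1 called gene of 19 tested, where 3.21% of all genes were called, and 4 that fell, where 7.28% of all genes were lower at an adjusted p under 0.05. Jun, a subunit of AP-1, went from 272.0 ± 65.8 to 91.2 ± 34.3 CPM (log2 change -1.58, adjusted p = 0.0043), with the call lost without control rat 1, 2 or 6 or cholate rat 4 or 7. Its partner Fos fell by 0.93 on the log2 scale (adjusted p = 0.0127) and Btg2, an antiproliferative gene, by 0.73 (adjusted p = 0.0385). The phosphatase gene Dusp1, described above, is on both lists. In the 6 libraries together Jun was at -2.16 and Fos at -1.21, and in the 4 apart Jun was at -0.82 (adjusted p = 0.0267) and Fos at -0.44 (adjusted p = 0.236), a difference that was not tested. With 1 rat left out, Btg2 had an adjusted p of up to 0.0864. In edgeR on all 10 libraries none of the 19 rose at an adjusted p under 0.05, where 802 of 12385 genes were higher. Ier3 alone of the 19 was higher at an unadjusted p under 0.05, where 14.5% of all genes were. DESeq2 had Ier3 past its adjusted threshold. In the 4 libraries apart 1 of 20 tested was higher at an adjusted p under 0.05, where 3.88% of all genes passed in either direction.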

How the data were processed

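Libraries were prepared as strand-specific, per the labels' protocols, and the submitters' processing notes name bcl2fastq 1.8.4, BWA 0.7.12-r1039 and the rat build rn6. The deposited table holds raw read counts for each gene. It also holds the authors' signal, a normalized CPM for which edgeR 3.16.2 is named, which was not used for any result. Other deposited columns give lengths and coordinates in bases, and the length column equals the union of coding bases in 100% of 23422 genes. The sources used here name no counting program and no strand setting.

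The tools were edgeR 4.0.16, limma 3.58.1 and DESeq2 1.42.0, run under R 4.3.3. After filterByExpr (grouped by diet) and TMM scaling, 12385 genes entered edgeR's robust quasi-likelihood test, with diet as the only term. Standard errors are the absolute log2 change over the square root of F. On simulated counts for 12385 genes 56 of 100 genes with a true log2 change of 1.5 were called, 90 of 100 with 2.5, and 1 of 12102 with none. Those counts were drawn independently for each gene, without the library split on component 1. Changes were set only in genes above a minimum level. The shares called there may therefore not hold for the real libraries. Total counts per library ran from 14337356 to 45285762, and intervals and floors cover counting error only.

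The genes, lists and tests were chosen with earlier results of these data known. Named genes were the 10 clock genes, listed further clock genes, and in the other lists those with an adjusted p under 0.05. Some items are not reported here. Thra was named after its values were seen. Alternatives were other scalings, filters and tools and the omission of each rat. Fits of the 6 and the 4 libraries, and with that split as a term, were chosen after seeing the data.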

Additional observations from a re-analysis of the deposited data

Results flagged for a closer look

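A value was picked out where 1 of the 5 rats of a diet lay apart from the others, by the gap to its neighbour over the range of the group (Dixon's test at the 95% level), which chance gives in about 5% of groups. Of 60 groups checked, 5 held such a value. Nr1d1 stood at 94.0 CPM in control rat 9, above the other controls, and at 62.3 CPM in cholate rat 11, above the other cholate rats. The log2 ratio of Arntl to Nr1d1 was low in control rat 9, at 0.37. Ciart was high in the same rat, at 2.94 CPM. Csnk1e was low in control rat 5, at 12.1 CPM. In control rat 9 and cholate rat 11 Clock was also low, and the link between these values was not tested.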

How the results depend on the processing

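No paired analysis was possible because each rat had its own number and only 1 diet. The number of the 10 clock genes called was 2, and it was 0 to 3 when 1 rat was left out, where 1.34% to 3.6% of all genes were called. It was 4 by limma-voom with quality weights and in the 6 libraries together, 5 with the library split as a term, and 0 by glmTreat, which tests against a fold of 2, and in the 4 libraries apart. At an adjusted p under 0.05 it was 4, with 4 to 6 on leaving out 1 rat (7.77% to 17% of all genes), 7 with quality weights and in the 6 libraries, and 0 by glmTreat and in the 4 libraries. The number with a log2 change below 0 was 9 or 10 on leaving out 1 rat. Further clock genes called numbered 1, with 0 to 2 on leaving out 1 rat, and 0 under RLE scaling, by glmTreat and in the 4 libraries. Over all genes 398 were called, 168 to 450 on leaving out 1 rat, 788 by DESeq2, 1157 with quality weights, 50 by glmTreat, 1003 in the 6 libraries, 112 in the 4 and 829 with the split as a term. The cause of these shifts was not tested, except that glmTreat by construction sets a stricter null.

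Among genes that were not called, signs turned as follows. Nr1d1 ran from -0.83 to 0.48 on leaving out 1 rat, Clock from -0.26 to 0.34 and Nr1d2 from -0.43 to 0.20. Clock was -0.0020 under upper quartile scaling, -0.014 with a mean of at least 5 CPM, -0.21 by limma-voom, -1.67 in the 4 libraries and -0.47 with the split as a term. In the 4 libraries Nr1d2 was 0.17, Ciart -0.20 and Csnk1d -0.15. At these depths a count of 0 allows up to 0.228 CPM in the shallowest library.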

Other observations

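Likeness to 3 of the clock genes was measured as Pearson's r over the 10 libraries after each diet's mean was removed, among 9264 named genes with a mean of at least 5 CPM, as a description with no test. For Dbp the closest patterns were those of Efna4, Ulk3, Rev1, Mt1m and Mtap (r from 0.94 to 0.96), and the most opposed were Cpm, Gcnt6, Tph1, Stau1 and Wdr1 (r from -0.94 to -0.96). For Nr1d1 they were Tmem176b, Nhp2l1, Ifitm1, Adprm and Igha (0.91 to 0.93), and opposed Ormdl1, Mnt, Whsc1, Rab43 and Tom1l2 (-0.93 to -0.97). For Arntl they were Nudcd2, Bpnt1, Ccnf, Sri and Prkar2b (0.87 to 0.90), and opposed Cd14, Alox5, Csad and Tk2 (-0.88 to -0.92). The libraries share depth and the split on component 1, which can set such values.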
